A study of Mus musculus with 2 samples.

Results

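Amino acid transporter genes of the solute carrier families SLC1, SLC3, SLC6, SLC7, SLC36, SLC38 and SLC43 were compared between 2 populations of intraepithelial lymphocytes (IEL), T cells of the gut lining. The genes were taken by symbol, as every row of the deposited table with a single symbol made of Slc1a, Slc3a, Slc6a, Slc7a, Slc36a, Slc38a or Slc43a and a digit, which gave 59 genes with 121 probe sets, out of 20663 genes in all. The CD4CD8aa IEL carried CD8 alpha beside CD4, and the CD4 IEL did not. Both were sorted from the small intestine of RAG-knockout mice on the C57BL/6 background, which lack lymphocytes of their own making, 8 weeks after the mice had received naive CD4 T cells (the transfer model of colitis). Each population was measured on 1 Affymetrix mouse array, so no difference below carries a test. How many mice went into each RNA is not stated in the labels. In multiples of the array median, the sorted marker Cd8a had a signal of 291.4 in CD4CD8aa IEL and 3.79 in CD4 IEL. Cd4 had 86.4 and 72.6 in the same order, and the T cell receptor complex gene Cd3g had 335.3 and 270.9. Since each RNA comes from a whole sorted population, fewer cells that express a gene and less RNA per cell cannot be told apart.

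T cells take up amino acids to build proteins and to fuel growth after activation. Glutamine enters through exchangers such as Slc1a5 and sodium-coupled carriers of the SLC38 family, leucine and other large neutral amino acids through light chains of the SLC7 family that pair with the heavy chain Slc3a2 (CD98), and arginine through Slc7a1. A further set of carriers sits in the lysosomal membrane, where Slc38a9 senses arginine for the growth kinase complex mTORC1 and Slc36a1 exports small neutral amino acids together with protons.

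Of the 59 genes, 48 were detected, meaning that the brighter array lay above a floor of 0.4 times its median signal, and 33 were detected on both arrays. Slc36a1 was 2.18-fold higher in CD4CD8aa IEL and was the only gene at least 2-fold apart among the 20 whose brighter array reached 2 times the median. Slc1a5 was 1.93-fold higher. The carriers of leucine, arginine and glutamine that T cells are known for otherwise differed by 1.21-fold or less at the probe set used, among them Slc3a2, Slc7a1, Slc7a6, Slc43a2, Slc38a1 and Slc38a2. Signals are multiples of the array median, and each difference is log2 of CD4CD8aa IEL minus CD4 IEL.

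Promoter windows are shown for Slc36a1, Slc38a7 and Slc38a9, and for Slc7a11, a textbook target of the amino acid stress factor ATF4. The first 3 are lysosomal carriers out of a group of 6 lysosomal and proton-coupled ones. Slc36a2, Slc36a3 and Slc36a4 of that group are not shown. The windows run from 250 bases before to 50 bases after the start site and are RefSeq sequences on GRCm38.p6. Capitals mark the letters CACGTG in the first 3 windows. This is the E-box that MYC and TFEB family factors bind. In the Slc7a11 window they mark TGATGNAA, the core of the element bound by C/EBP and ATF factors, on either strand. The windows lie at chr11:55204090-55204389 (plus strand) for Slc36a1, at chr8:95853442-95853741 (minus strand) for Slc38a7, at chr13:112660516-112660815 (plus strand) for Slc38a9 and at chr3:50443564-50443863 (minus strand) for Slc7a11.
Slc36a1: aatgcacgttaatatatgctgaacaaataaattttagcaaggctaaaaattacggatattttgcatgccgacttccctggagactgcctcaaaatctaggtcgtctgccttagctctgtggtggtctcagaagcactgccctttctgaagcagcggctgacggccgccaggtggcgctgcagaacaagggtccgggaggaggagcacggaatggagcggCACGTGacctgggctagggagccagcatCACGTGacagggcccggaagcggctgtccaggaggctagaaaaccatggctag
Slc38a7: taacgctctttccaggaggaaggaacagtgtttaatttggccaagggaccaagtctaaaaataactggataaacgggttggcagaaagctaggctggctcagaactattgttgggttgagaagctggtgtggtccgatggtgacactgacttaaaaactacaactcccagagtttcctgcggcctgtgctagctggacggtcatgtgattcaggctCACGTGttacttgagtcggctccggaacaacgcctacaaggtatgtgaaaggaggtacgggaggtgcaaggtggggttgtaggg
Slc38a9: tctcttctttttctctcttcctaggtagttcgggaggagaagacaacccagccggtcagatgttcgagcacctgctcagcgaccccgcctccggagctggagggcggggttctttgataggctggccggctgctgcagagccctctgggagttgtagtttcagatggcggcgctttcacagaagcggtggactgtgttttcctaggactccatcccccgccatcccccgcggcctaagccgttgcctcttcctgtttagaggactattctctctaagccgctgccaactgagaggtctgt
Slc7a11: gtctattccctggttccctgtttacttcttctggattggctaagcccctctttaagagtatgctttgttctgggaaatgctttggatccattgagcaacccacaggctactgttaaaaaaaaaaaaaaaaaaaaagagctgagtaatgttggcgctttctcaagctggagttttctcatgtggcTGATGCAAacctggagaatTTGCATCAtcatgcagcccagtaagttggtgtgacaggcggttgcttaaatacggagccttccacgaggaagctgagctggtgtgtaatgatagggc

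The Slc36a1 window holds CACGTG at 2 places, starting 31 and 3 bases before the start site. The second lies inside TCACGTGA, the core of the motif of lysosomal genes, which overlaps the shorter motif. The Slc38a7 window holds 1 CACGTG, 34 bases before the start site, and the Slc38a9 window holds none. Both strands were searched in every RefSeq window. CACGTG occurred in 2349 of 32851 windows (7.15%), TCACGTGA in 320 (0.974%) and TGATGNAA in 1304 (3.97%). Of the 48 detected genes, 34 had a window, 54 windows in all. CACGTG occurred in 5 of these 54, those of Slc36a1, Slc38a7, Slc1a7, Slc6a3 and Slc6a16. TCACGTGA occurred only in that of Slc36a1, and TGATGNAA in 4 windows of Slc7a11, Slc7a7 and Slc1a4. These matches describe the letters and not binding.

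Among all detected genes, 6.74% were higher by 2-fold or more in CD4CD8aa IEL, and 6.37% were lower by as much. Of the 48 detected transporter genes, 6 were higher (12.5%), 2 were lower and 40 lay between. Their median log2 difference was 0.19, beside 0.06 over the 17340 detected genes. The counts depended on dim genes. Where the brighter array was under 2 times the median, the shares over all detected genes were 11.1% higher and 9.6% lower, and 5 and 2 of the 28 transporter genes there were so. For 6 of the 8 genes at least 2-fold apart, the dimmer array lay at the floor and the fold is a lower bound. A second yardstick is the same-gene SD, the spread of log2 differences between probe sets of the same gene, which was smaller at higher signal: it was 0.81 for signals under the median, 0.55 for those of 2 to 4 times the median, 0.45 for 4 to 16 times and 0.41 for 16 to 64 times. It also holds true differences between transcripts and covers neither mice nor RNA preparations.

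**Figure D1:**
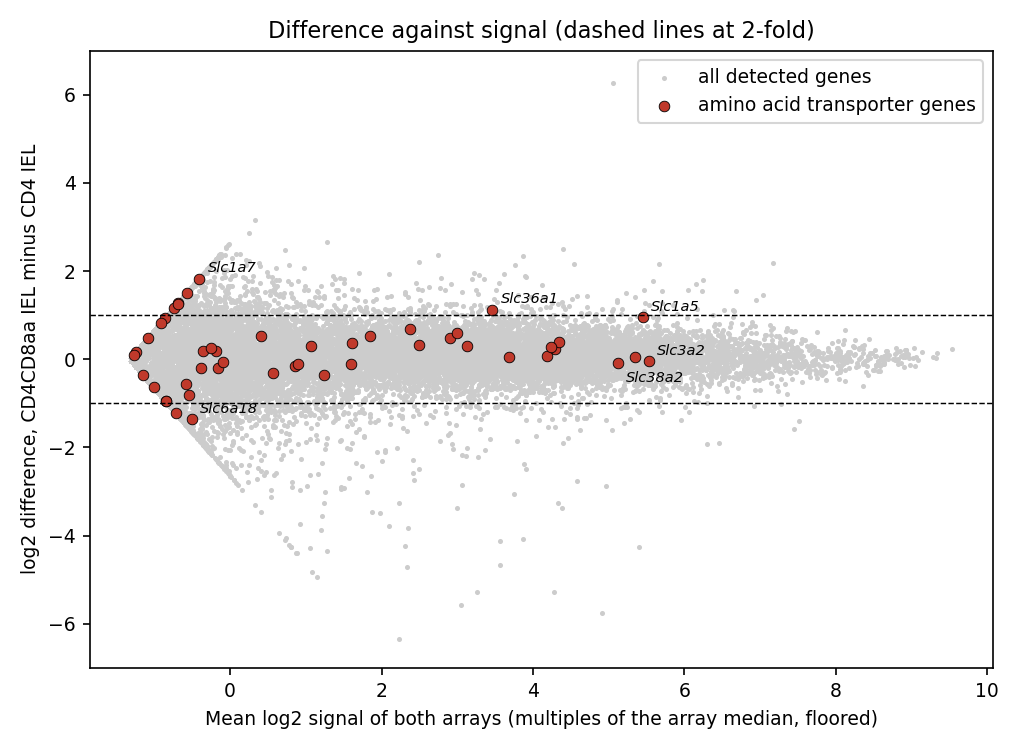
The log2 difference (vertical axis, CD4CD8aa IEL minus CD4 IEL) is plotted against the mean log2 signal of both arrays (horizontal axis), with the 17340 detected genes in grey, the 48 detected transporter genes in red and dashed lines at 2-fold. Slc36a1 lies above the upper line and Slc1a5 just under it, at 1.13 and 0.95, and the other transporter genes past a line lie at the dim left end.

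The 20 genes with a signal of at least 2 times the median on the brighter array depend least on the floor. All 20 were detected on both arrays. At the probe set used, the signal was higher in CD4CD8aa IEL in 16 of them and lower in 4. Their median log2 difference was 0.31. Over the 9871 genes with such signals, 57.2% were higher and the median was 0.07. The split into 16 and 4 depended on the choice of probe set. As medians over detected probe sets, Slc38a10, Slc7a6 and Slc7a6os (each -0.13), Slc38a9 (-0.28) and Slc7a1 (-0.29) fell below 0. The rest of the 16 stayed above 0 and the 4 lower genes below it. Only Slc36a1 of the 20 reached 2-fold, and none was 2-fold lower, beside 3.46% and 3.93% of all such genes. In 5 of the 20, Slc36a1, Slc1a5, Slc38a9, Slc43a3 and Slc36a4, the signal was higher in CD4CD8aa IEL by more than the same-gene SD, and in 0 it was lower by more than that. Over the 9871 genes of such signal the shares were 18.9% higher and 12.2% lower, so that 5 of 20 (25%) is near the share over all genes.

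**Figure D2:**
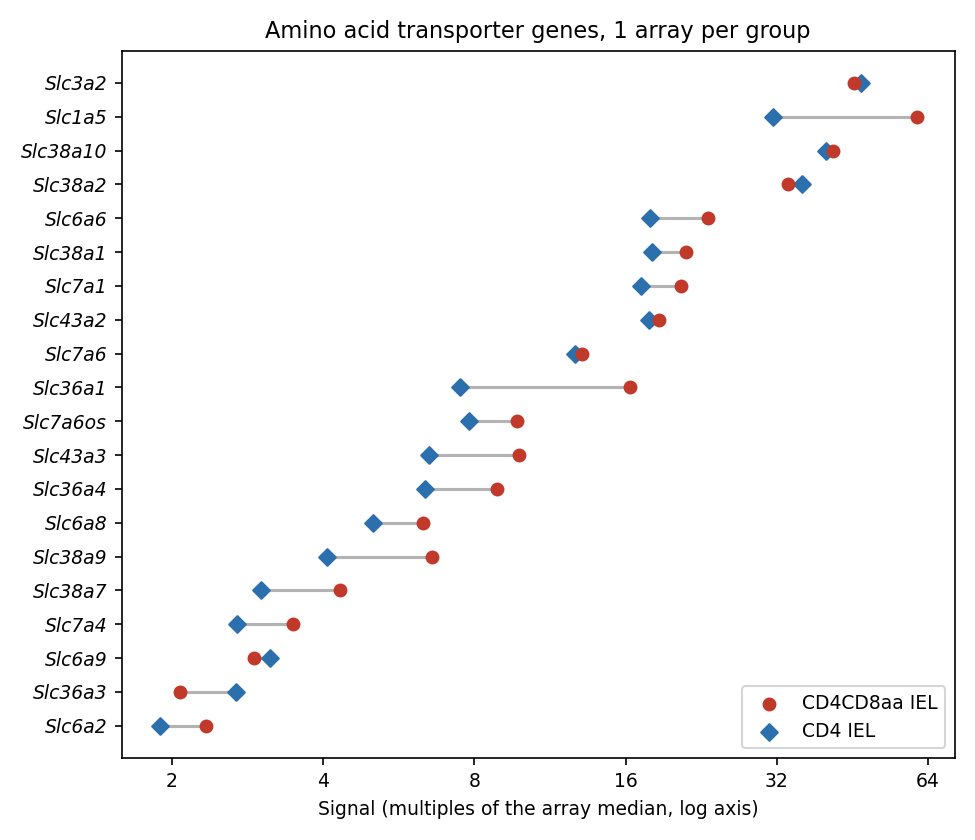
Signals in multiples of the array median (horizontal log axis) are shown for the 20 genes with a brighter array of at least 2 times the median, with CD4CD8aa IEL as red circles and CD4 IEL as blue diamonds, 1 array each. The gap is widest for Slc36a1 (16.3 in CD4CD8aa IEL and 7.48 in CD4 IEL) and Slc1a5 (60.8 and 31.5), while the symbols of Slc3a2, Slc38a10, Slc43a2 and Slc7a6 touch or overlap. Probe sets differ in how well they bind, so the order of genes down the page is no order of expression.

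Of the 6 lysosomal and proton-coupled carriers, 4 had a higher signal in CD4CD8aa IEL and 2 a lower one at the probe set used. Slc36a1 (probe set 1428793_at, its only one) had a signal of 16.3 in CD4CD8aa IEL and of 7.48 in CD4 IEL. Before division by the array median these were 1323.5 and 617.3. The log2 difference of 1.13 exceeded 0.45, the same-gene SD for such signals. Slc36a4, a high-affinity proline and tryptophan carrier, had 8.86 in CD4CD8aa IEL and 6.37 in CD4 IEL, a difference of 0.48. Slc38a7, which exports glutamine and asparagine from lysosomes, had 4.32 and 3.01 in the same order, a difference of 0.52 that is within the same-gene SD of 0.55.

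Slc36a2 and Slc36a3 are the chromosomal neighbours of Slc36a1 and are known from kidney and testis. Slc36a3 had a signal of 2.08 in CD4CD8aa IEL and 2.68 in CD4 IEL, and Slc36a2 had 0.84 and 0.96. Neither shared the higher signal of their neighbour, with log2 differences of -0.37 and -0.19. Over the 6 carriers of this group the median difference was 0.50, with 1 gene at least 2-fold higher, 0 lower and 5 between. The shares over all detected genes were 6.74% higher and 6.37% lower. The group median takes Slc38a9 at 0.69, its chosen probe set, although the median over the probe sets of that gene was -0.28.

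Slc38a9, the lysosomal arginine sensor, gave an unsettled result. Its chosen probe set had 6.58 in CD4CD8aa IEL and 4.07 in CD4 IEL, a log2 difference of 0.69. A second probe set gave 0.99, from 5.47 and 2.75. The other 5 gave differences between -1.08 and 0.02, so that the median over all 7 was -0.28. Direction for Slc38a9 thus rests on which of its probe sets is read.

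The glutamine and small neutral amino acid carriers include Slc1a5 (ASCT2), the exchanger that brings glutamine into activated T cells. Slc1a5 had a signal of 60.8 in CD4CD8aa IEL and of 31.5 in CD4 IEL. The difference of 0.95 was more than 2 times the same-gene SD of 0.41, and its dimmer probe set, at 3.62 in CD4CD8aa IEL and 2.72 in CD4 IEL, gave 0.41. Both probe sets were thus higher in CD4CD8aa IEL, by unequal amounts. The difference of the dimmer one was within 0.55, the same-gene SD for such signals.

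The sodium-coupled carriers Slc38a1 (SNAT1) and Slc38a2 (SNAT2) did not share this difference. Slc38a1 had 21.2 in CD4CD8aa IEL and 18.1 in CD4 IEL, with differences of 0.23 and -0.01 at its 2 probe sets. Slc38a2 had 33.7 and 35.96 in the same order, and its 3 probe sets gave differences between -0.09 and 0.15. Slc1a4 (ASCT1), the close relative of Slc1a5, stayed near the array median, at 0.94 in CD4CD8aa IEL and 0.82 in CD4 IEL.

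The remaining carriers of this group are known from other organs and were dim. Slc38a3, the glutamine carrier of liver and kidney, had 0.97 in CD4CD8aa IEL and 0.31, below the floor, in CD4 IEL, at least 2.43-fold higher. Its other probe set gave a similar bound, at 0.98 and 0.11. Slc38a4 had 0.02 in CD4CD8aa IEL and 0.62 in CD4 IEL, Slc7a10 had 0.71 and 0.82, and Slc38a5 was not detected. Of the 7 detected genes in the group 1 was at least 2-fold higher, 0 were lower and 6 lay between, with a median of 0.20. The shares over all detected genes were 6.74% higher and 6.37% lower.

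System L, the route of leucine and other large neutral amino acids, differed little between the arrays. Slc3a2, the CD98 heavy chain that carries several SLC7 light chains to the surface, had 45.5 in CD4CD8aa IEL and 47.0 in CD4 IEL, a difference of -0.05. Slc43a2 (LAT4), which needs no heavy chain, had 18.6 and 17.8, and its 2 detected probe sets gave 0.06 and 0.14. Slc43a1 (LAT3) and Slc7a8 (LAT2) were not detected.

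Slc7a5 (LAT1), the light chain best known from activated T cells, has no row of its own in the table. The single probe set that names it, 1418326_at, also names LOC100047619. It had a signal of 0.16 in CD4CD8aa IEL and 0.14 in CD4 IEL, both below the floor, so no fold is given. This probe set shows low signal next to a strong Slc3a2 on both arrays, and whether it detects Slc7a5 mRNA was not tested.

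Cationic carriers move arginine, lysine and ornithine. Slc7a1 (CAT1) had 20.7 in CD4CD8aa IEL and 17.1 in CD4 IEL, a difference of 0.27, but its other probe sets gave -0.29, from 7.64 and 9.37, and -0.40. Slc7a6, a light chain of Slc3a2 that exchanges arginine for neutral amino acids, had 13.1 and 12.7, with 0.05 and -0.30 at its 2 probe sets. Neither gene thus had a direction shared by all its probe sets.

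The related light chain Slc7a7 was dim, at 0.52 in CD4CD8aa IEL and 0.91 in CD4 IEL, and its 2 probe sets gave -0.81 and -0.85, about the same-gene SD at that signal. Slc7a4, whose substrate is unsettled, had 3.48 and 2.70, a difference of 0.37, and Slc7a3 had 0.71 and 0.35. Slc7a2, the inducible arginine carrier of macrophages and liver, was below the floor at its chosen probe set. Its other 3 probe sets passed the floor in CD4 IEL alone, at signals of 0.47 to 0.90, with differences between -1.17 and -0.23. None of the 5 detected cationic carriers reached 2-fold, beside 6.74% of all detected genes higher and 6.37% lower by as much. Their median was 0.27.

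Slc7a11 (xCT), which imports cystine for glutathione synthesis, was at the edge of detection in both populations. It had 0.43 in CD4CD8aa IEL and 0.35 in CD4 IEL, and its second probe set had 0.11 and 0.36. Its promoter window is the one with the marked C/EBP-ATF letters. Slc7a13, an aspartate and glutamate carrier of kidney, was at least 2.83-fold higher, at 1.13 in CD4CD8aa IEL and 0.35 in CD4 IEL, while its other probe set was below the floor on both arrays.

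Among the high-affinity glutamate carriers, which clear glutamate at synapses, Slc1a7 of the retina had the largest floored difference of the 48 detected transporter genes. It had 1.42 in CD4CD8aa IEL and 0.27 in CD4 IEL, at least 3.55-fold higher, at a signal where the same-gene SD is 0.81. Slc1a2 had 1.72 and 1.92 at its chosen probe set, and its 4 detected probe sets gave -1.23 to -0.16. Slc1a1, the carrier also found in gut epithelium, had 0.10 in CD4CD8aa IEL and 0.77 in CD4 IEL. Slc1a3 and Slc1a6 were not detected. No gene of this group reached 2 times the median on either array.

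The carriers of taurine and creatine reached several times the array median, unlike most of the neurotransmitter transporter family SLC6 to which they belong. Slc6a6, the taurine carrier, had 23.3 in CD4CD8aa IEL and 17.9 in CD4 IEL, a difference of 0.38 that is within the same-gene SD. A second probe set gave 0.94, from 15.8 and 8.25, and another, at 0.07 in CD4CD8aa IEL and 0.67 in CD4 IEL, gave -0.74. Slc6a8, the creatine carrier, had 6.31 and 5.03, and its 2 probe sets gave 0.33 and 0.19. Slc6a9 (GlyT1), a glycine carrier, had 2.92 and 3.14, a difference of -0.10, against -1.06 at its other probe set.

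Slc6a2, the noradrenaline carrier, had 2.34 in CD4CD8aa IEL and 1.89 in CD4 IEL. The named carriers of dopamine, serotonin, GABA, proline and betaine stayed under 2 times the median. Slc6a3, the dopamine carrier, had 0.83 and 0.73. Slc6a4, the serotonin carrier, had 0.96 in CD4CD8aa IEL and 0.12 in CD4 IEL, at least 2.40-fold higher, and Slc6a11, a GABA carrier, 0.90 and 0.18, at least 2.25-fold higher. Slc6a7, the brain proline carrier, was at least 2.33-fold lower, at 0.20 in CD4CD8aa IEL and 0.93 in CD4 IEL. The dim members Slc6a5, Slc6a12, Slc6a13, Slc6a16 and Slc6a17 lay between. Markers of nerve and glia were also low on both arrays. Over 8 genes they summed to 8.70 in CD4CD8aa IEL and 9.65 in CD4 IEL. Of 7 detected marker genes, 1 (Tubb3) was at least 2-fold higher and 0 were lower, beside 6.74% and 6.37% of all detected genes. The part of nerve and glia in the transporter signals was not tested.

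Carriers of the apical membrane of gut and kidney epithelium were dim as well, and went no single way. Slc6a19, the main neutral amino acid carrier of the small intestine, had 1.80 in CD4CD8aa IEL and 1.93 in CD4 IEL. Slc7a9 and Slc3a1, the chains of the cystine and dibasic amino acid carrier, had 1.59 and 1.11, and 0.92 and 0.96. Slc6a18, a neutral amino acid carrier of kidney, had 0.44 in CD4CD8aa IEL and 1.13 in CD4 IEL, 2.57-fold lower. Besides Slc36a1 it was the only one of the 8 genes at least 2-fold apart that lay above the floor on both arrays. The dimmer signal of Slc6a18 was just over the floor of 0.4. With the floor 2 times as high its log2 difference was -0.50, against -1.36 as reported. Slc6a14 had 0.76 and 0.16 and Slc6a20a 0.45 and 0.04, while Slc6a15 and Slc6a20b were not detected.

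Epithelial markers give the scale for these values. Of 28 measured marker genes of small intestinal epithelium, 26 were detected. Of those, 1 was higher (3.8%) and 6 were lower (23.1%) by 2-fold or more in CD4CD8aa IEL. The shares over all detected genes were 6.74% and 6.37%. The signals of the 28 genes summed to 115.3 in CD4CD8aa IEL and 175.5 in CD4 IEL. The 6 lower genes were Reg3b, Krt18, Krt19, Muc2, Cldn7 and Cdx2. Reg3b, an antimicrobial lectin, had 22.3 in CD4CD8aa IEL and 60.8 in CD4 IEL, and without it the sums were 93.01 in CD4CD8aa IEL and 114.7 in CD4 IEL. Krt18, an epithelial keratin, had 4.74 and 13.3 in the same order. The higher gene was Vil1, at 1.12 in CD4CD8aa IEL and 0.43 in CD4 IEL, and Cdx1 and Anpep were below the floor on both arrays. Of the 26 detected genes, 8 lay above 0 and 18 below. Slc36a1 is known from gut epithelium too, and the part of epithelial RNA in the transporter values was not tested.

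Of the other symbols matched, Slc43a3, which in humans carries purine nucleobases and not amino acids, had 9.82 in CD4CD8aa IEL and 6.49 in CD4 IEL, 1.51-fold higher. Slc38a10 had 41.4 and 40.2, with 7 probe sets between -1.14 and 0.33. Slc7a6os is named after its position opposite Slc7a6 and is no carrier. It had 9.71 and 7.82, with 0.31 and -0.57 at its 2 probe sets. Slc7a12, Slc7a14 and Slc7a15 were not detected.

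Several probe sets per gene give the only repeat measurement in these data. Of the 121 probe sets, 88 were detected, of which 7 were higher by 2-fold or more and 7 lower. The share over all detected probe sets was not computed, so these counts have no background beside them. At least 2 were detected for 20 genes. In 11 of these the detected probe sets lay on both sides of 0, and in 9 they all lay on the same side. That side was above 0 for Slc1a4, Slc1a5, Slc38a3, Slc43a2 and Slc6a8, and below 0 for Slc1a2, Slc6a9, Slc7a2 and Slc7a7. Slc36a1, Slc36a4, Slc38a7 and Slc43a3 have 1 probe set each, so their differences have no such repeat.

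**Figure D3:**
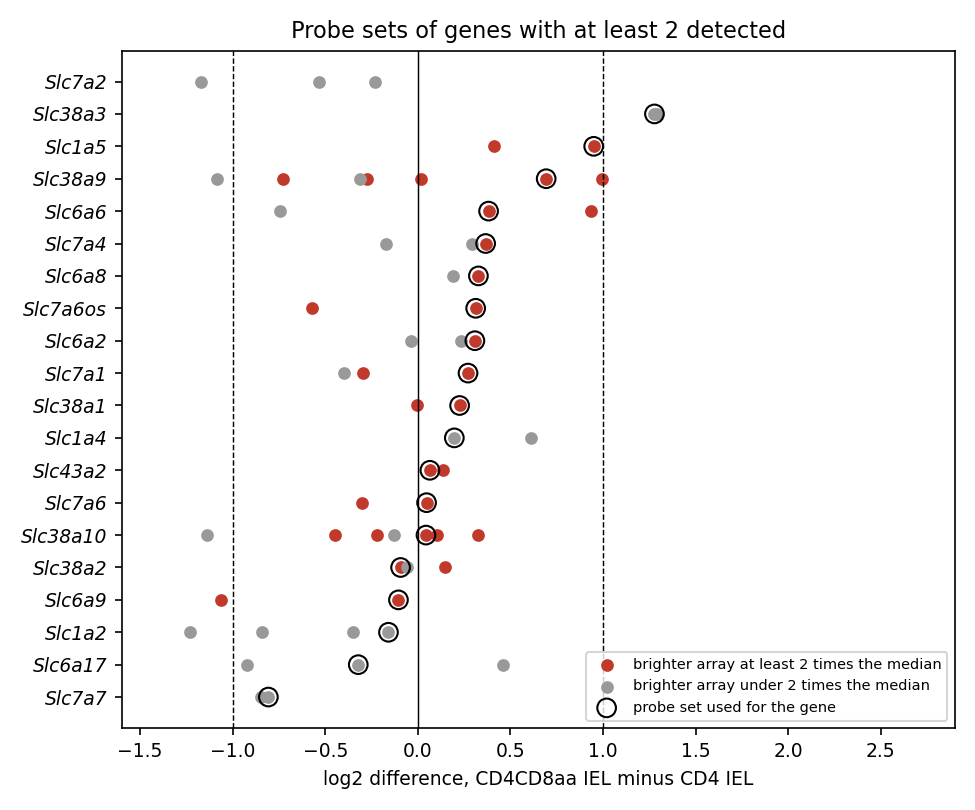
Each point is the log2 difference (CD4CD8aa IEL minus CD4 IEL) of 1 detected probe set, for the 20 genes with at least 2, red where the brighter array reached 2 times the median and grey where it did not, with a ring around the probe set used for the gene. Both points of Slc1a5 lie above 0, while those of Slc38a9 spread from -1.08 to 0.99. Slc7a2 has no ring because its chosen probe set was not detected.

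Genes that work with the transporters showed few differences of 2-fold, and so did detected genes in general. Of all 17340, 6.74% were higher in CD4CD8aa IEL and 6.37% lower by as much. Where the brighter array reached 2 times the median, these shares were 3.46% and 3.93%. Low counts thus do not by themselves set the lists below apart. In the list of the integrated stress response and amino acid synthesis, which ATF4 drives, 1 of 23 detected genes was at least 2-fold higher, 0 were lower and the median was 0.28. Atf4 itself had 55.6 in CD4CD8aa IEL and 61.8 in CD4 IEL. Asns, which makes asparagine and was picked out after its values were seen, had 12.3 and 7.67, a difference of 0.68, with 0.53 at its other probe set. Chac1, a glutathione-degrading enzyme, was at least 3.08-fold higher at 1.23 in CD4CD8aa IEL and 0.32 in CD4 IEL. All 23 detected genes of the amino acid sensing list upstream of mTORC1 lay within 2-fold, with a median of 0.13, as did all 19 aminoacyl tRNA synthetases, with a median of 0.13.

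The largest differences downstream of uptake were in polyamine and glutathione metabolism. Odc1, which turns ornithine into the polyamine putrescine, had 6.47 in CD4CD8aa IEL and 33.6 in CD4 IEL, 5.20-fold lower at its only detected probe set. Of the 20 detected genes of amino acid catabolism and polyamines, 2 were at least 2-fold higher (Bcat1 and Kynu, both dim), 1 was lower and the median was 0.08. Ggt1, the surface enzyme that breaks down extracellular glutathione, had 0.52 in CD4CD8aa IEL and 4.06 in CD4 IEL, 7.81-fold lower. Gpx1, which uses glutathione to remove peroxides, had 14.95 and 38.03 in the same order, 2.54-fold lower. Ggt1 and Gpx1 each had 1 detected probe set. These were the 2 lower genes of the 11 detected in the glutathione list, whose median was -0.33 with 0 higher. Of the 11, 8 lay below 0 and 3 above, Txnrd1 furthest at 0.94. The difference of Ggt1 was -2.34 with the floor 2 times as high and -1.02 with it at 2 times the median. At the highest floor tried, 4 times the median, it was -0.02, because that floor lies just under its CD4 IEL signal.

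Of 11 detected regulators known to act on transporter genes, 1 was at least 2-fold higher and 1 was lower, with a median of 0.08. The shares over all detected genes were 6.74% higher and 6.37% lower. Myc, which drives uptake genes in activated T cells, had 10.8 in CD4CD8aa IEL and 9.08 in CD4 IEL. Mycn was at least 4.30-fold higher, at 1.72 and 0.34, but its other detected probe set gave -0.92. Bach2 had 0.42 in CD4CD8aa IEL and 1.44 in CD4 IEL, 3.43-fold lower, with -0.67 at its other detected probe set. The dimmer Bach2 signal was just over the floor of 0.4. With the floor 2 times as high its log2 difference was -0.85, against -1.78 as reported. Of the 17 detected carriers outside the 7 families, only the dim Slc17a7 was at least 2-fold apart (at least 2.33-fold higher), and the median was 0.02.

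**Figure D4:**
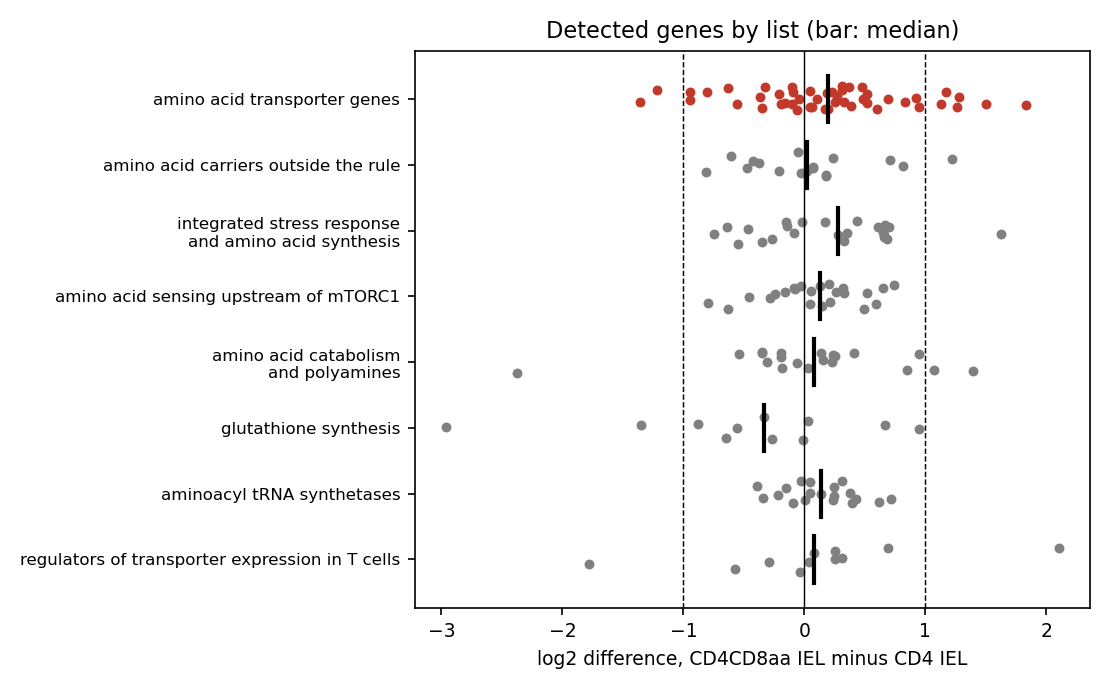
Log2 differences (horizontal axis, CD4CD8aa IEL minus CD4 IEL) of the detected genes are shown by list, with 1 point per gene, a black bar at the median and dashed lines at 2-fold. The transporter genes (red) have a median of 0.19, and the lowest points are Ggt1 in the glutathione list and Odc1 in the catabolism and polyamine list.

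Other marker lists describe the sorts. Their counts stand beside 6.74% of all detected genes at least 2-fold higher and 6.37% lower. T cell markers summed to 1998 in CD4CD8aa IEL and 1630 in CD4 IEL over 11 genes, and to 1707 in CD4CD8aa IEL and 1626 in CD4 IEL without the sorted marker Cd8a. Of the 11, Cd8a and Cd3e were at least 2-fold higher, and Cd2, an adhesion receptor, was lower, at 9.18 in CD4CD8aa IEL and 62.3 in CD4 IEL. Macrophage and dendritic cell markers summed to 37.3 and 35.8 over 14 genes, with 2 of 13 detected genes at least 2-fold higher (Itgax and C1qc) and 1 lower (Cd14). Markers of B and plasma cells summed to 2.45 and 4.47 over 6 genes, with 0 higher and 2 lower (Cd79b and Sdc1). Those of stroma and endothelium summed to 6.84 and 27.8 over 9 genes, with 0 higher and 3 lower (Pdgfra, Pdgfrb and Pecam1). Pdgfrb had 3.11 in CD4CD8aa IEL and 22.4 in CD4 IEL, which is most of the gap between these sums. Of the 7 detected genes of stroma and endothelium, 3 lay above 0 and 4 below. Those above included Col3a1 at 0.98 and Cdh5 at 0.96, both lower bounds.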

How the data were processed

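The authors deposited 1 table of 45101 probe sets with normalized intensities (raw intensity over the array median, to 2 decimals), raw intensities, a log2 fold and a linear ratio, the last 2 being CD4 over CD4CD8aa per the file headers. Signals came from GCOS 1.2, per the submitters' processing notes. How probes were summarised and background was removed is not stated there. A second deposited table holds the normalized intensities unrounded.

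From the normalized intensities, values under a floor of 0.4, in array medians (set by the higher 30th percentile of the arrays), were raised to it before log2, with Python 3.11.15 and pandas 2.3.3. A gene was detected where its brighter array exceeded the floor. A gene with several probe sets was represented by the one of highest mean log2 signal. With 1 array per group no test was run, and the number of arrays limits the precision. The same-gene SD rests on 20131 probe sets. The calculation was tested on simulated data. Any detected member could be named, and 1 that is included in the counts is not reported here by name. From the other lists, the members at least 2-fold apart are named, and a few more, chosen after their values were seen. The genes, lists and motifs were chosen with earlier results of these data known. Alternatives covered the floor, the scaling, the choice of probe set and the threshold.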

Additional observations from a re-analysis of the deposited data

How the results depend on the processing

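No paired analysis was possible because each group has 1 array. Raw signals, quantile normalization, unrounded signals, medians over probe sets, probe sets not ending in _s_at or _x_at, and leaving out Slc7a6os (chosen after the data were seen) each gave 6 transporter genes at least 2-fold higher and 2 lower. Under those alternatives of signal and probe set, 5.76% to 6.9% of all detected genes were higher and 5.7% to 6.47% lower. With no floor 9 transporter genes were higher and 6 lower, beside 11.5% and 11.3% of all detected genes. With the floor 2 times as high, at 2 times and at 4 times the array median, 1 was higher, Slc36a1, and 0 were lower. This is because dim genes reach the floor. At these floors, in the same order, 3.19%, 2.07% and 1.75% of all detected genes were higher and 3.43%, 2.22% and 1.73% lower. The counts were also 1 and 0 among genes whose brighter array reached 2 times the median (chosen after the data were seen), which leaves dim genes out. The shares over all such genes were 3.46% and 3.93%. The median was 0.29 with the floor at 2 times and at 4 times the median and 0.31 among those brighter genes, and 0.10 as a median over probe sets, against 0.19 as reported. At 1.5-fold 11 were higher and 6 lower, and at 3-fold 1 and 0. The shares over all genes were not computed at these thresholds. The difference of Slc36a1 stayed between 1.08 and 1.13 and that of Slc1a5 between 0.68 and 0.95 under the 9 alternatives for single genes. Both genes have signals above every floor tried, so the floors could not change these values. Slc36a1 has 1 probe set, so the choice of probe set could not change its value either. As a median over probe sets Slc38a9 was at -0.28 and Slc7a1 at -0.29. Of the 123 detected genes of the other pathway lists, marker lists left out, 5 were higher and 4 lower, beside 6.74% and 6.37% of all detected genes. There were 1, 0 and 0 higher with the floor 2 times as high, at 2 times and at 4 times the median, and 2 lower at 4 times. Their median, 0.05, was -0.024 over probe sets.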
